A study of Mus musculus with 8 samples.

Results

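Amino acids, sugars, lactate and zinc cross cell membranes through carriers of the solute carrier (SLC) superfamily, and the carriers described here are the mouse genes of 11 of its families. The set was defined by name: a gene belonged to it when a probe set of the array carried its symbol alone and that symbol lay in the Slc1, Slc2, Slc3, Slc6, Slc7, Slc16, Slc30, Slc36, Slc38, Slc39 or Slc43 family, with Slc2a1 and Slc2a3 left out. Of 18193 genes with such a probe set, 104 were members, and each was read by the probe set with its highest mean log2 signal. A probe set was tested when at least 4 of 8 arrays read above 33.8, the midpoint of all deposited signals, which held for 49 of the 104 members and for 9939 genes in all.

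RNA came from double-positive (CD4+ CD8+) thymocytes of mice aged 4 to 5 weeks. All 8 mice were Tcra-/-, so that their thymocytes form no alpha-beta T-cell receptor, and carried Cd4-Cre, which drives recombination in CD4-expressing cells, and the cells were enriched on magnetic columns through CD4. By title and genotype field 4 mice were controls (c-Myb sufficient) and 4 were mutants (c-Myb deficient), each with an array of its own. The source names give the controls as Mybf/f and the mutants as Mybf/w, which runs against the genotype field, so each group is called by its label and each difference is deficient minus sufficient.

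Some SLC7 carriers are light chains. These reach the surface bound to a heavy chain of the SLC3 family, and the pair exchanges 1 amino acid for another. Many SLC1, SLC6, SLC36 and SLC38 carriers couple uptake to sodium or proton gradients, while SLC43 carriers and SLC2 hexose carriers let their substrates pass down a gradient. SLC16 carriers move lactate and related acids, some of them aromatic amino acids. Zinc is moved out of the cytosol by SLC30 and into it by SLC39 carriers. Thymocytes depend on several of these carriers when they grow and divide, and resting double-positive cells are small.

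On the deficient arrays the cystine carrier gene Slc7a11, the system L gene Slc43a1, the lactate carrier gene Slc16a1 and the zinc carrier gene Slc30a4 fell, and the neutral amino acid carrier gene Slc6a19, the system L light chain gene Slc7a5 and the aromatic amino acid carrier gene Slc16a10 rose. These 7 of 49 tested members (14.3%) passed an adjusted p of 0.05 in limma, beside 9.98% of all tested genes. The 3 rises were 6.12% of the tested members, near the 5.90% of all genes, and the 4 falls were 8.16%, beside 4.08%. Whether the shares of members and of all genes differ was not tested, and in enriched bulk cells fewer cells of a kind and less RNA per cell cannot be told apart. The median log2 difference was 0.017 over the 49 members and 0.019 over all tested genes, and 40 of the 49 differed by less than 0.5 in size. Of the 7, Slc6a19, Slc7a11 and Slc43a1 differed by at least 1 on the log2 scale, 3 of 49 members (6.12%), beside 2.14% of all tested genes.

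**Figure D1:**
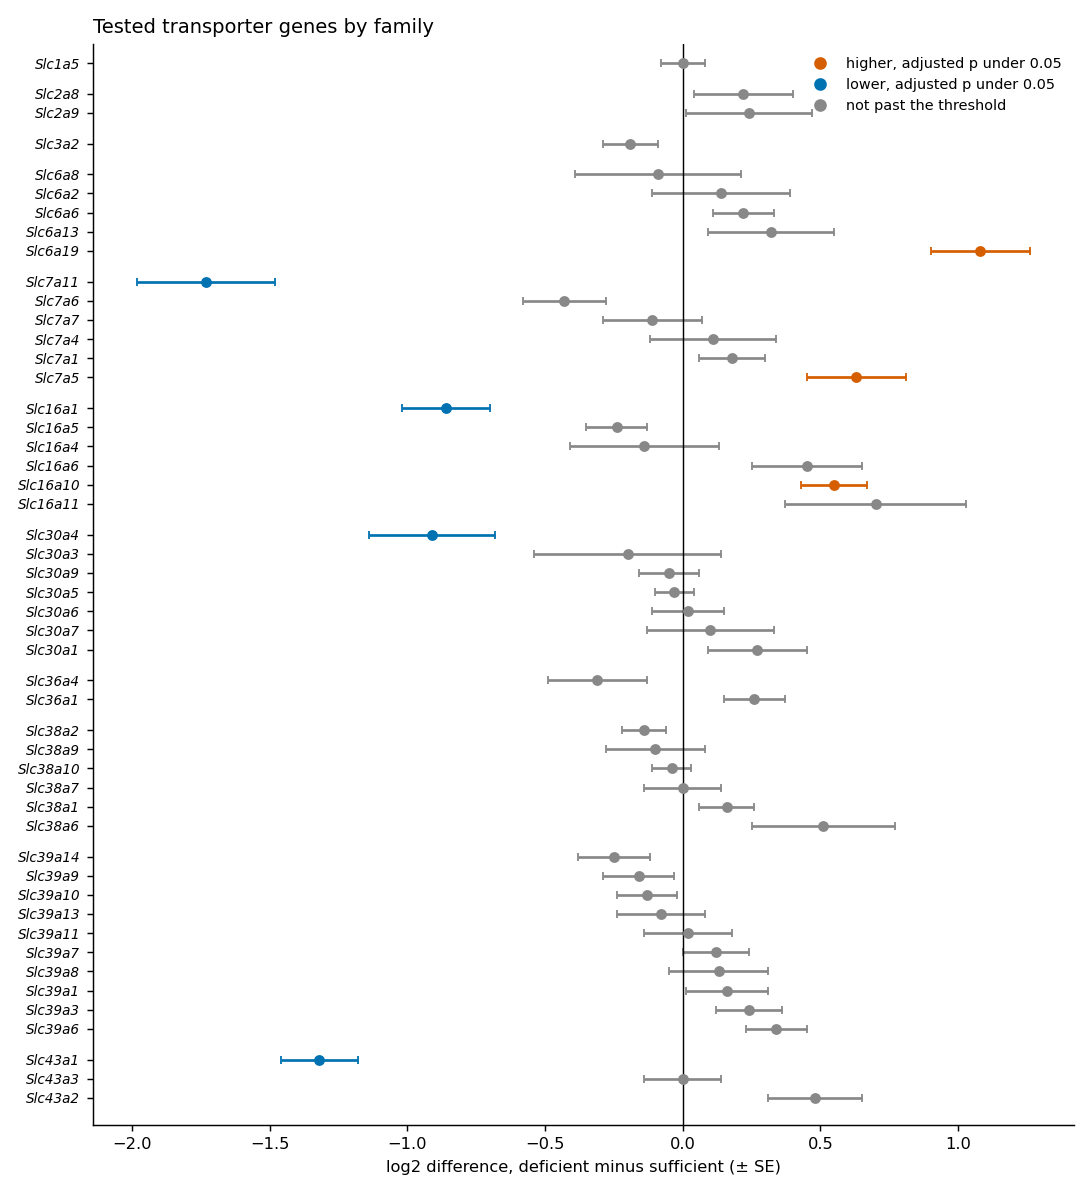
Log2 difference (deficient minus sufficient, with its SE) of the 49 tested members, grouped by SLC family. The 3 called rises are orange, the 4 called falls blue and the 42 other members grey; Slc7a11 lies farthest left at -1.73 and Slc6a19 farthest right at 1.08.

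Xist, the RNA of the inactive X chromosome of female cells, differed along with the groups. It read 4129 to 5736 on the deficient arrays and 4358.5 on sufficient replicate 1, but 23.4 to 36.7 on the other 3 sufficient arrays. Sex is not given in the labels, and differences of sex and of group cannot be fully told apart here. A fit with an added Xist term (high or low), called the Xist fit below, in effect sets the deficient arrays against sufficient replicate 1 and assumes that this lone array varies like the others. In it 26 of 9939 genes (0.262%) and 0 members passed in limma. Sufficient replicate 1 is therefore given by name below. It was the sufficient array nearest to the deficient mean for 4 of the 7 called members (Slc6a19, Slc7a11, Slc30a4 and Slc43a1) and for 36% of all called genes. Myb itself was not lower on the deficient arrays. Its brightest probe set read 9362 ± 1151 on sufficient and 11290 ± 543 on deficient arrays (SD, n = 4). That was a rise of 0.28 on the log2 scale (two-sided exact permutation p = 0.0286, the smallest that 70 labellings can give). Other Myb probe sets differed by 0.36 (two-sided exact permutation p = 0.0286) and by 0.04 (two-sided exact permutation p = 0.714). The position of the Myb probes relative to the floxed part was not known here. The double-positive markers Cd4, Cd8a and Rag1 read at least 3227.6 on every array and differed by -0.08, 0.04 and -0.07 (adjusted p = 0.731, 0.768 and 0.481 in limma). Of 8 tested double-positive markers 3 fell (Rag2, Dntt and Cd24a), and the summed signal of the 8 was 57998 to 61319 on sufficient and 51646 to 56029 on deficient arrays, without overlap; the part of this in the carriers' differences was not tested. Of the other cell types' markers, 5 macrophage and dendritic cell, 2 stroma and 1 granulocyte genes were tested, and 0 passed. The B cell and erythroid markers did not pass the filter on dim signals. Summed signals were low, at 283 to 470 on sufficient and 334.5 to 394.6 on deficient arrays for 8 macrophage and dendritic cell genes. They were 40.4 to 58.5 and 41 to 77.7 for 3 B cell genes, and 17.9 to 76.7 and 41.3 to 69.9 for 3 erythroid genes. For 7 stroma genes they were 153.1 to 209.5 and 151.8 to 170.3, and for 4 granulocyte genes 45.4 to 85.8 and 65.2 to 163.6. Flt3, Siglech, Cd79a, Hba-a1, Klf1, Foxn1, Psmb11, Col1a1, Pdgfra, Elane and Mpo lay below the limit of 33.8 on all 8 arrays. The mean signal of the 18S rRNA control probe sets was 4363 on deficient replicate 4 and 440 to 1114 on the other arrays. Without that array 7 members passed, Slc7a6 among them (-0.54, adjusted p = 0.0265) and Slc7a5 not (0.52, adjusted p = 0.0829).

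Slc7a11 encodes xCT, the light chain that imports cystine in exchange for glutamate and so feeds glutathione synthesis. Its signal was 193, 266, 375 and 418 on sufficient replicates 1 to 4 and 94.7, 74.8, 50 and 107 on deficient replicates 1 to 4. Every deficient array lay below every sufficient one, and sufficient replicate 1 was the lowest of its group. The gene fell by 1.73 ± 0.25 (SE) on the log2 scale, to a level 3.33-fold lower (adjusted p = 0.00186, limma). A second probe set read 178 to 476 on sufficient and 33.3 to 93.3 on deficient arrays (log2 -2.11 ± 0.31, adjusted p = 0.00239 over 19100 probe sets, of which 6.98% passed). In the Xist fit the difference was -1.14 ± 0.34 (adjusted p = 0.234).

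Slc43a1 encodes LAT3, a facilitative carrier of leucine and other large neutral amino acids that needs no heavy chain. Sufficient replicates 1 to 4 read 761, 800, 928 and 1102, and deficient replicates 1 to 4 read 400.0, 329, 281 and 393. The groups did not overlap: the lowest sufficient array read 761 and the highest deficient array 400.0. The gene fell by 1.32 ± 0.14, to a level 2.49-fold lower, with the lowest adjusted p of the members (0.000431, limma). In the Xist fit its adjusted p was the lowest of the 7 (-1.10 ± 0.22, adjusted p = 0.0831). Its relatives were not called: Slc43a2, also a system L carrier (LAT4), read 1070 ± 272 and 1479 ± 233 (log2 0.48 ± 0.17, adjusted p = 0.0979), and Slc43a3, a purine base carrier, differed by -0.00 ± 0.14 (adjusted p = 0.989). Other Slc43a2 probe sets differed by 0.52, with no overlap between the groups, and by -0.00 (adjusted p = 0.0572 and 0.997 over probe sets, limma).

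Slc16a1 encodes MCT1, which moves lactate, pyruvate and ketone bodies with a proton. It read 4033, 3300, 4534 and 4355 on sufficient replicates 1 to 4 and 2573, 2405, 1525 and 2500 on deficient replicates 1 to 4. The groups did not overlap, and deficient replicate 3 lay well below the other deficient arrays. The gene fell by 0.86 ± 0.16, to a level 1.82-fold lower (adjusted p = 0.00749, limma). Sufficient replicate 1 stood near its group's mean, and the Xist fit gave -0.87 ± 0.27 (adjusted p = 0.264). The second probe set of Slc16a1 was below the limit on every array, and with the mean over both probe sets the difference was -0.43 and the call ended (adjusted p = 0.191).

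Slc30a4 encodes ZnT4, which loads zinc into intracellular vesicles. Sufficient replicates 1 to 4 read 990, 1420, 1892 and 1920, and deficient replicates 1 to 4 read 838, 832, 533 and 1073. The groups overlapped, since sufficient replicate 1 lay below deficient replicate 4. The gene fell by 0.91 ± 0.23, to a level 1.87-fold lower (adjusted p = 0.0337, limma), and in the Xist fit the difference was -0.31 ± 0.31 (adjusted p = 0.801). The call also ended without sufficient replicates 2, 3 or 4 or without deficient replicates 1, 2 or 3 (adjusted p between 0.051 and 0.106), when arrays were centred on their median (0.0529), with no filter on dim probe sets (0.0514) and with no variance trend (0.0599).

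Promoter letters are given for these 4 genes because they fell together. The windows are the 250 bases before the RefSeq start on GRCm38.p6, 5′ to 3′ on the gene's strand. Capitals mark matches, on either strand, to 4 motifs: that of Myb (CAACNG or TAACNG), of ATF4 (TGATGNAA), of AP-1 (TGANTCA) and of the zinc response (TGCACNC or TGCGCNC).

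Slc7a11 promoter, chr3:50443614-50443863, minus strand: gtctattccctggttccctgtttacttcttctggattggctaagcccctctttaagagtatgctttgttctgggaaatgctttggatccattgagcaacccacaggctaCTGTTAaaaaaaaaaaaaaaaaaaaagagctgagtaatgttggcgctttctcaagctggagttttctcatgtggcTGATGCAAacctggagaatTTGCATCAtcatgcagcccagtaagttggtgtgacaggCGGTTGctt
Slc43a1 promoter, chr2:84840073-84840322, plus strand: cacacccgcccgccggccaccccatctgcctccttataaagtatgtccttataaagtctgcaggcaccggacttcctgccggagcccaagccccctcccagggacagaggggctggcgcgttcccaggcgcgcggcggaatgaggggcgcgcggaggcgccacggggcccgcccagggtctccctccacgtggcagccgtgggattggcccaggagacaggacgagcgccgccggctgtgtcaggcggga
Slc16a1 promoter, chr3:104638414-104638663, plus strand: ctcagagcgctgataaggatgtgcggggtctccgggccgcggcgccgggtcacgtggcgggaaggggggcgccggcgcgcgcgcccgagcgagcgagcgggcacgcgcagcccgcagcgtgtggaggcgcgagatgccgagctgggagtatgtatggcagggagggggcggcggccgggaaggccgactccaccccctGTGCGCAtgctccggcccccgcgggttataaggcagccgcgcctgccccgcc
Slc30a4 promoter, chr2:122702664-122702913, minus strand: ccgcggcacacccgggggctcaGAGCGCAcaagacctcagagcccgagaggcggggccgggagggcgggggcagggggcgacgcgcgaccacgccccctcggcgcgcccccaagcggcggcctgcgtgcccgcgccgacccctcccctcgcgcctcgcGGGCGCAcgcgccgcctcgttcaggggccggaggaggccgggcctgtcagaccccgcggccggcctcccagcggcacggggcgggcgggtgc

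The Slc7a11 window held 2 matches to the Myb motif, CTGTTA starting at -141 and CGGTTG at -9 from the start, and 2 to the ATF4 motif, TGATGCAA at -66 and TTGCATCA at -47. ATF4 is the transcription factor of the amino acid response. The Slc16a1 window held 1 zinc response match (GTGCGCA at -52), the Slc30a4 window 2 (GAGCGCA at -228 and GGGCGCA at -92), and the Slc43a1 window none of the 4 motifs. Of 32851 RefSeq promoter windows of this length, 43.1% held a Myb match, 3.45% an ATF4 match, 6.75% an AP-1 match and 21.4% a zinc response match. Among the 104 windows of the 78 members with an entry these shares were 41.3%, 3.85%, 9.62% and 23.1%. The windows of Slc6a19 and Slc16a10, which rose, held none of the 4. Slc7a5, which also rose, had no entry, so its window could not be read. No match overlapped another in the windows shown, and a match is a run of letters, not a measured site.

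Slc6a19 encodes B0AT1, the sodium-coupled carrier of neutral amino acids best known from gut and kidney. It read 1828, 1584, 1165 and 928 on sufficient replicates 1 to 4, and 2711, 2857, 2705 and 3109 on deficient replicates 1 to 4. The deficient arrays lay close together and above all sufficient arrays, of which replicate 1 was the highest. The gene rose by 1.08 ± 0.18, or 2.12-fold (adjusted p = 0.00346, limma). The second probe set read 382 to 898 and 1611 to 1914 (log2 1.51, adjusted p = 0.00164 over probe sets). In the Xist fit the difference was 0.63 ± 0.23 (adjusted p = 0.344). Cltrn, which encodes the partner protein collectrin that brings B0AT1 to the surface in kidney, did not pass the filter on dim signals.

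Slc7a5 encodes LAT1, the light chain that with the CD98 heavy chain imports leucine into activated T cells. Sufficient replicates 1 to 4 read 110.5, 129, 105.5 and 126, and deficient replicates 1 to 4 read 226, 183, 129.5 and 243. The groups were parted by less than 1 signal unit, as deficient replicate 3 at 129.5 stood just above sufficient replicate 2 at 128.6. The gene rose by 0.63 ± 0.18, or 1.55-fold (adjusted p = 0.0453, limma). The call ended on leaving out any array other than deficient replicate 3 (adjusted p between 0.0582 and 0.128), under quantile normalization (0.106), with arrays centred on their median (0.0985), with no filter on dim probe sets (0.0934) and with no variance trend (0.0563). In the Xist fit the difference was 0.71 ± 0.29 (adjusted p = 0.433). Slc3a2, which encodes that heavy chain (CD98), read 1014 ± 127 and 883 ± 47.7 (SD, n = 4; log2 -0.19 ± 0.10, adjusted p = 0.294).

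Slc16a10 encodes TAT1, which carries tryptophan, tyrosine and phenylalanine. Its signals were 177, 156, 192.5 and 208 on sufficient and 257, 249, 272 and 321 on deficient replicates 1 to 4, with no overlap. It rose by 0.55 ± 0.12, or 1.46-fold (adjusted p = 0.0183, limma), and the Xist fit gave 0.59 ± 0.20 (adjusted p = 0.316). Another probe set past the filter differed by 0.26 (adjusted p = 0.399 over probe sets), and the mean over its 4 probe sets by 0.23 (adjusted p = 0.238). With arrays centred on their median the brightest probe set gave 0.52 (adjusted p = 0.062).

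**Figure D2:**
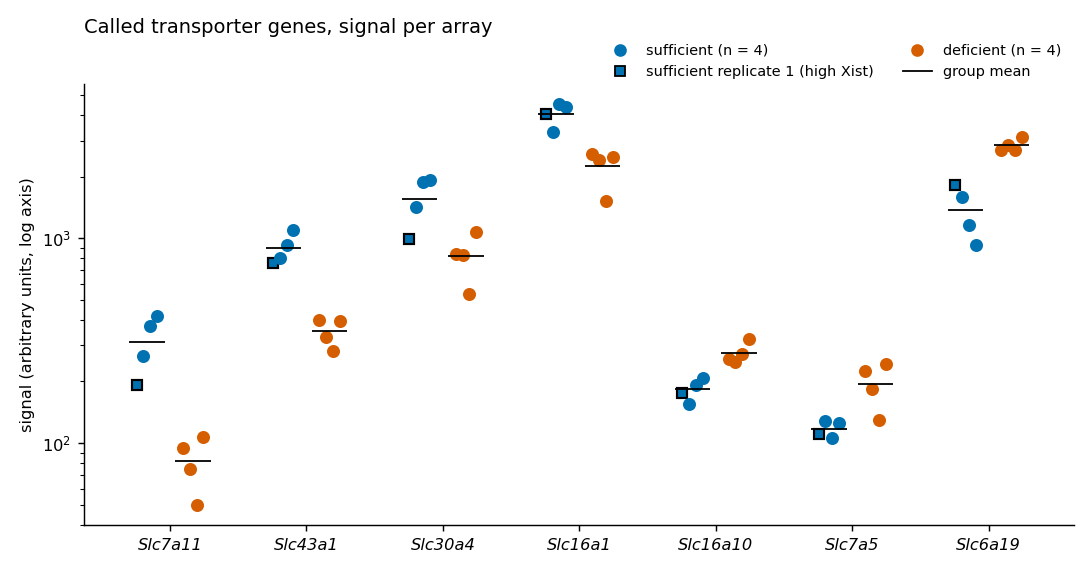
Signal of each array (log axis, arbitrary units) for the 7 called members, with sufficient arrays in blue, deficient arrays in orange and bars at the group means. Squares mark sufficient replicate 1, the sufficient array with high Xist. Only for Slc30a4 do the groups overlap, at 990 and 1073.

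The remaining amino acid carriers were measured without a call. In the 7 amino acid families 24 of 58 members were tested, 2 rose and 2 fell, with a median log2 difference of 0.00. Slc1a5, which encodes the glutamine carrier ASCT2, read 983 ± 39.8 and 982 ± 44.2 (log2 -0.00 ± 0.08, adjusted p = 0.994), the only one of 7 Slc1 members past the filter. The glutamine carriers of the SNAT group gave Slc38a1 1863 ± 222 and 2081 ± 215 (0.16 ± 0.10) and Slc38a2 5905 ± 501 and 5360 ± 390 (-0.14 ± 0.08), and 0 of 6 tested Slc38 members passed over a range of -0.14 to 0.51.

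Among the other Slc7 members, the light chain gene Slc7a6 (y+LAT2, which pairs with CD98 too) read 548 ± 81.2 and 406 ± 79.0. Both its probe sets differed by -0.43 (adjusted p = 0.0942, and 0.0559 over probe sets). Slc7a1, which encodes the arginine carrier CAT1, read 598 ± 37.2 and 686 ± 120 (log2 0.18 ± 0.12, adjusted p = 0.417). Slc6a6, the taurine carrier gene, read 520 ± 59.1 and 609 ± 73.6 (0.22 ± 0.11, adjusted p = 0.265). Other Slc6a6 probe sets past the filter gave 0.03 and -0.52, without a call. In the Slc36 family, Slc36a4 differed by -0.31 ± 0.18 (adjusted p = 0.302). Slc36a1, named because its groups did not overlap (112 to 132.5 and 134.0 to 154.5), differed by 0.26 ± 0.11 (adjusted p = 0.180). In all, 8 of the 49 tested members (16.3%) had no overlap between the groups, near the 17.0% of all tested genes.

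Of 9 Slc2 hexose carriers in the set 2 were tested. Slc2a8 read 53.8 ± 12.8 and 64.4 ± 7.52 (log2 0.22 ± 0.18, adjusted p = 0.497), and Slc2a9, best known as a urate carrier, differed by 0.24 ± 0.23 (adjusted p = 0.584). Of 13 Slc16 members 6 were tested, and beside Slc16a1 and Slc16a10 they ranged from -0.24 for Slc16a5 to 0.70 for Slc16a11, which was above the limit on 4 arrays only (adjusted p = 0.180 and 0.224). Slc16a3, the gene of the lactate exporter MCT4, was below the limit of 33.8 on all 8 arrays. Basigin and embigin escort MCT1 to the membrane: Bsg read 1948 ± 351 and 1951 ± 94.1 (0.02 ± 0.11, adjusted p = 0.951) and Emb differed by 0.26 ± 0.14 (adjusted p = 0.302). Neither escort gene was called.

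Of 24 zinc carriers 17 were tested, and Slc30a4 was the 1 call. The 7 tested Slc30 genes had a median of -0.03 and the 10 tested Slc39 genes one of 0.07. Slc39a6 (ZIP6) read 1436, 1529, 1241 and 1073 on sufficient and 1642, 1594, 1672 and 1728 on deficient replicates 1 to 4. Its groups did not overlap, yet the difference of 0.34 ± 0.11 missed the threshold (adjusted p = 0.0746), and its second probe set past the filter gave -0.11. Slc39a10 (ZIP10) read 595 ± 58.9 and 542 ± 68.0 (log2 -0.13 ± 0.11, adjusted p = 0.524), and Slc30a1, the exporter at the cell surface, 209 ± 62.5 and 250.2 ± 24.5 (0.27 ± 0.18, adjusted p = 0.375). The second Slc30a1 probe set past the filter gave -0.21, without a call. Metallothionein genes, which zinc induces, were too dim to test: Mt1 passed the limit on 1 array and Mt2 on 3. Mtf1, the gene of the zinc-sensing factor, differed by -0.06 ± 0.20 (adjusted p = 0.893).

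Genes around the carriers were read from 5 lists of 71 genes, of which 53 were tested and 4 passed (2 higher, 2 lower), or 7.55%, below the 9.98% of all tested genes. The count was 2 without deficient replicate 1, 2 or 3 and 8 without deficient replicate 4. Of 23 tested genes of amino acid sensing and mTORC1, the kinase complex that amino acids activate, 1 fell and 1 rose. Rptor, which encodes its subunit raptor, fell from 492 ± 61.4 to 271 ± 37.4 (log2 -0.83 ± 0.13, adjusted p = 0.00258), and Sesn1, whose protein restrains mTORC1, rose from 1691 ± 303 to 2660 ± 308 (0.66 ± 0.13, adjusted p = 0.00924). Neither pair of groups overlapped. Lamtor1, the brightest of that list, differed by 0.26 (adjusted p = 0.0634).

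Of 15 tested genes of the amino acid stress response 1 rose, the tryptophanyl-tRNA synthetase gene Wars1, from 311 ± 29.2 to 403 ± 8.4 (0.36 ± 0.10, adjusted p = 0.0371). Atf4, which encodes the factor whose motif the Slc7a11 window holds, differed by 0.16 ± 0.10 (adjusted p = 0.350), and its partner Ddit3 by -0.35 ± 0.11 (adjusted p = 0.0625). Asns, a textbook ATF4 target, was below the limit on all 8 arrays, and Ddit4, the brightest of the list, differed by -0.27 (adjusted p = 0.516). Of 10 tested genes of lactate and hexose entry 1 fell, the lactate dehydrogenase gene Ldhb, from 3545 ± 249 to 2756 ± 263 (-0.36 ± 0.09, adjusted p = 0.0219). Its sister gene Ldha read 4380 ± 342 and 5113 ± 460 (0.22 ± 0.08, adjusted p = 0.12), and Txnip, the brightest of the list, differed by -0.04. The escort list (3 tested, its brightest Nherf1 at -0.26) and the zinc list (2 tested, its brightest Mtf2 at -0.18) had 0 calls in limma. Mtf2, despite its name, encodes a Polycomb protein and does not read the zinc response.

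The other 55 members were not tested, and 45 of the 104 were below the limit on all 8 arrays. Among the 55 were 13 of 18 Slc6 members, many of them neurotransmitter carriers of neurons, 9 of 15 Slc7 and 6 of 7 Slc1 members. Slc16a13 and Slc16a14, named after their values were seen, passed only when no filter was set (log2 1.0 and 0.79, adjusted p = 0.0153 and 0.0284). Slc16a13 read 2.0 to 9.8 on sufficient and 18.3 to 30.4 on deficient arrays, and Slc16a14 1.0 to 5.9 and 12.8 to 22.3, so both lay below the limit throughout and no fold is given.

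**Figure D3:**
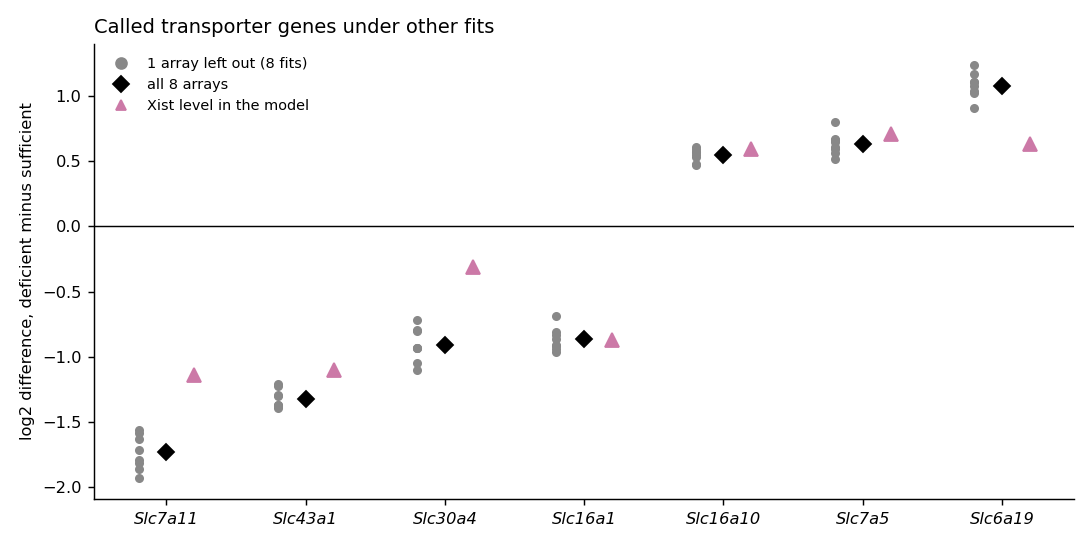
Log2 difference (deficient minus sufficient) of the 7 called members with all 8 arrays (diamonds), with 1 array left out (grey, 8 fits) and in the Xist fit (triangles). Every point keeps its sign; Slc30a4 moves from -0.91 to -0.31 and Slc7a11 from -1.73 to -1.14 and Slc6a19 from 1.08 to 0.63 in the Xist fit, while Slc16a1 goes from -0.86 to -0.87 and Slc16a10 from 0.55 to 0.59. None of the 7 is called in the Xist fit.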

How the data were processed

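The deposited table holds linear intensities, 1 signal per probe set and array, which the authors made with GCOS (Affymetrix), as the submitters' processing notes say without a version. All 8 arrays shared a 2% trimmed mean of 250, so the authors had scaled them alike, and a difference in total RNA per cell would not show. Array medians were 30 to 37.9, and the number of arrays limits the precision. The labels call the arrays biological replicates.

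Signals were used as log2(signal + 16), which understates the change of dim genes. Of 45101 probe sets 64 controls were dropped, and 34945 carried 1 symbol; all 104 members matched RefSeq. Limma 3.58.1 in R 4.3.3 (lmFit, eBayes with a variance trend, two-sided) was fitted over 9939 genes with Benjamini-Hochberg adjustment; adjusted p-values come from it unless the probe sets, the Xist fit or another setting is named beside them. On simulated data for this comparison over 9939 genes, 6%, 56%, 84% and 96% of 50 genes each changed 1.25-, 1.5-, 2- and 4-fold were recovered, and 4 of 125 calls were false. The simulated noise was normal and independent between genes, fewer genes were changed than were called here, and there was no Xist difference. These rates may therefore not hold for the arrays themselves. Named were all called members, the brightest tested member of each family, members differing by at least 1, a preset of lymphocyte carriers, and the called and brightest genes of each list; other genes named mark the ends of a range or were chosen after their values were seen. Members, lists and tests were chosen with earlier results of these data known. No scan batch was at hand. The labels do not say that a replicate number marks a shared litter or batch, so the groups were not paired. Deviations of same-numbered arrays from their group means correlated at 0.003, 0.171, -0.274 and 0.361, which cannot decide whether mice were paired.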

Additional observations from a re-analysis of the deposited data

Results flagged for a closer look

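In 3 of 46 groups of 4 arrays 1 array stood far from the rest, and chance gives about 1 in 20. Xist read 4358.5 on sufficient replicate 1, against 23.4 to 36.7 on the other sufficient arrays. Slc16a1 read 1524.6 on deficient replicate 3, against 2404.8 to 2572.6 on the other deficient arrays; without that array the fall was -0.69. Slc7a1 read 542.4 on sufficient replicate 3, against 612.0 to 619.7.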

How the results depend on the processing

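The count of 7 called members became 4 with arrays centred on their median, 0 with the Xist level as a covariate, 10 with array weights, 4 at an adjusted p of 0.01 and 3 when a log2 difference of at least 1 was asked for too. It lay between 5 and 7 with 1 array left out. The count over all genes was 1748 with array weights, 26 with the Xist level and 502 to 1194 with 1 array left out, against 992. That of partner and response genes was 7 with the mean over probe sets, 11 with array weights, 0 with the Xist level and 2 to 8 with 1 array left out, against 4. The members' median was 0.084 with array weights. The cause of these changes was not tested. Of 147 refits of the 7 called members 117 kept the call, 30 lost it and 0 changed sign; Slc6a19, Slc7a11 and Slc43a1 lost it only with the Xist level. Slc7a6, Slc39a6 and Slc43a2 gained a call in 7 of 293 refits of named members not called, all 3 with array weights. The replicate block, though the labels do not say what a number shares, gave 7 called members and 1035 genes, and changed no call of a member. Signals near 33.8 limit what can be said of the 55 untested members.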
